A study of Mus musculus with 17 samples.

Results

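Slc16a6, Tbrg1, Hebp1, Smim6, Lrrc8d, P2rx4, Fam57a and Gm14446 are 8 of the 26422 genes counted in mouse small intestinal organoids that were differentiated with or without KPT-330. They were chosen because their level was higher with KPT-330 than in the control at every time point of these same data. Their rise with KPT-330 is therefore given as a description, without a test. The genes were found by symbol in the count tables, and each was listed in all 17 libraries.

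KPT-330 (selinexor) inhibits Exportin 1, the carrier that takes proteins with a nuclear export signal out of the nucleus. Its cargoes include transcription factors and cell cycle inhibitors. Several of the genes encode membrane proteins. Slc16a6 is a monocarboxylate transporter known for exporting ketone bodies from liver cells, P2rx4 is a cation channel opened by extracellular ATP, and Lrrc8d is a subunit of the volume-regulated anion channel. Smim6 encodes endoregulin, a small membrane protein that inhibits calcium pumps of the endoplasmic reticulum. Fam57a, also named Tlcd3a, carries a TLC domain, the fold shared by ceramide synthases. Hebp1 binds haem in the cytosol, Tbrg1 is a nuclear protein that binds ARF and MDM2 in the p53 pathway, and Gm14446, also named Ifit1bl1, belongs to the interferon-induced IFIT family.

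Organoids came from small intestinal crypts of C57BL/6 mice and were enriched for stem cells in ENR+CV medium (EGF, Noggin and R-spondin 1 with CHIR99021 and valproic acid). At day 0 they were moved to ENR+CD medium, in which DAPT replaces valproic acid, which directs differentiation towards Paneth cells, the antimicrobial secretory cells of the crypt base. KPT-330 was given at 160 nM in ENR+CD. Single cells were profiled by Seq-Well S3, in which transcripts are counted by unique molecular identifiers (UMIs). The 2 day 0 libraries were untreated in ENR+CV, the 7 control libraries were in ENR+CD without KPT-330 at days 0.25, 1, 2, 3, 4 and 6, and the 8 KPT-330 libraries were in ENR+CD at the same days. Day 6 had 2 control and 2 KPT-330 libraries and day 3 had 2 KPT-330 libraries. Each library pooled many organoids, and the libraries were not stated to be from separate mice, so the spread between them may be technical.

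The 17 libraries held 531 to 1547 kept cells and 3458887 to 12433109 UMIs each, with a median of 2676 to 8463 UMIs per cell, and 14 cell barcodes occurred in more than 1 library. Summed fibroblast, immune and endothelial marker levels were at most 0.0268, 0.718 and 0.0265 UMIs per 10000, whereas 5 epithelial markers summed to between 32.6 and 44.9. None of these marker genes was at 0 over all libraries. The share of Paneth-like cells was close in control and KPT-330 libraries at day 0.25 (0.701% and 0.534%), day 1 (2.23% and 2.08%) and day 2 (7.06% and 7.03%). It was higher with KPT-330 at day 3 (20.6% and 30.8%), day 4 (35.8% and 53.1%) and day 6 (46.2% and 64.1%). The median mitochondrial share was 7.37% to 14.5% in control and 6.31% to 16.5% in KPT-330 libraries. The part of these shares in the levels of whole organoids was examined by holding cell types at fixed shares. This was done for the chosen genes and not for other genes.

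Levels below are UMIs of a gene per 10000 UMIs of the library. Of the 12812 genes that passed the filter on low counts, 3.4% were higher with KPT-330 at 6 of 6 time points. All 8 genes were among them, as the choice required. The lowest KPT-330 library lay above the highest control library for 6 of the 8, against 0.109% of all genes, a count that the choice of the genes also raises.

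Slc16a6 was the gene with the widest gap among the well-counted ones. In the control libraries its level was 0.505 at day 0.25, 0.472 at day 1, 0.676 at day 2, 0.582 at day 3, 0.587 at day 4, and 0.701 and 0.385 at day 6. With KPT-330 it was 2.64, 1.82, 2.43, 2.69 and 2.63, 1.53, and 1.505 and 1.43 at the same days. Every KPT-330 library was at least 2.04 times the highest control library, and the day 0 libraries (0.498 and 0.590) lay within the control range. The log2 ratio averaged 1.86 ± 0.40 (SD, n = 6 time points), from 1.38 at day 4 to 2.39 at day 0.25. With cell types held at the same shares in both conditions the mean log2 ratio was 1.74.

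Lrrc8d and P2rx4, the other 2 channel and transporter genes, had their largest ratio at day 0.25. Lrrc8d was at 0.392, 0.375, 0.411, 0.512, 0.505, and 0.452 and 0.541 in the controls in order of day. With KPT-330 it was at 1.53, 0.752, 0.866, 0.848 and 1.04, 0.855, and 0.649 and 0.839. The 2 sets of libraries did not overlap, and the day 0 libraries (0.315 and 0.270) were below both. The log2 ratio of Lrrc8d went from 1.97 at day 0.25 to 0.58 at day 6 and averaged 1.05 ± 0.48 (SD, n = 6 time points), and 1.1035 at fixed shares of cell types.

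P2rx4 was higher on later days in both conditions. Its control level was 0.239, 0.303, 0.594, 0.767, 0.932, and 0.902 and 0.825, and its KPT-330 level was 0.685, 0.561, 0.926, 1.04 and 1.27, 1.27, and 1.08 and 1.28. At each day the KPT-330 libraries were above the controls, but over all days the groups overlapped, with 5 of 8 KPT-330 libraries above every control. The log2 ratio averaged 0.76 ± 0.41 (SD, n = 6 time points) and narrowed from 1.52 at day 0.25 to 0.45 at day 6. At fixed shares of cell types the mean was 0.56, with log2 ratios of 0.13 at day 4 and 0.13 at day 6.

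**Figure D1:**
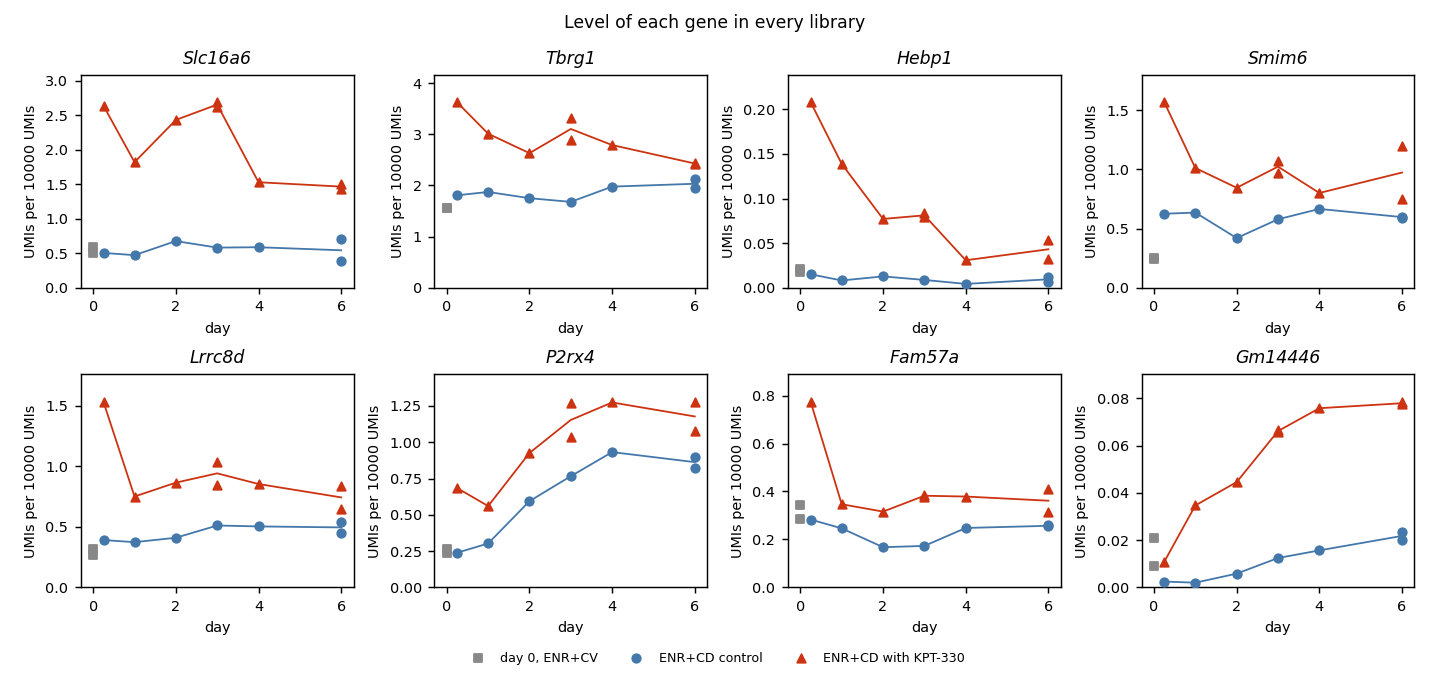
Level of each of the 8 genes in every library against day of culture (UMIs per 10000 UMIs, linear axes from 0). Squares are day 0 ENR+CV libraries, circles ENR+CD controls, triangles ENR+CD with KPT-330, and lines join the means of each day. Slc16a6 stayed between 1.43 and 2.69 with KPT-330 and between 0.385 and 0.701 in controls, whereas P2rx4 was higher on later days in both.

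Smim6 and Fam57a, which encode small membrane and TLC domain proteins, had smaller mean ratios than Slc16a6 and Lrrc8d. Smim6 control libraries ranged from 0.420 at day 2 to 0.666 at day 4 with a median of 0.602. Its KPT-330 libraries ranged from 0.750 to 1.57 with a median of 0.992, the highest at day 0.25. The 2 day 6 KPT-330 libraries of Smim6 were 0.750 and 1.20, a spread of 0.67 on the log2 scale, which was wider than the log2 ratio of 0.27 at day 4. The mean log2 ratio of Smim6 was 0.80 ± 0.36 (SD, n = 6 time points), and 0.72 at fixed shares. Fam57a was at 0.772 with KPT-330 at day 0.25 and between 0.313 and 0.410 in the other 7 KPT-330 libraries, against 0.168 to 0.283 in the controls. One day 0 library reached 0.344, so Fam57a with KPT-330 overlapped the day 0 level, though not the controls. Its log2 ratio averaged 0.85 ± 0.39 (SD, n = 6 time points), and 0.91 at fixed shares.

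Tbrg1 had the smallest mean ratio of the 8 genes. Its control level was 1.81, 1.87, 1.75, 1.68, 1.98, and 2.12 and 1.95 in order of day, and with KPT-330 it was 3.63, 3.01, 2.63, 3.31 and 2.90, 2.79, and 2.45 and 2.41. No KPT-330 library fell to the control range. The log2 ratio went from 1.00 at day 0.25 to 0.26 at day 6, with a mean of 0.65 ± 0.27 (SD, n = 6 time points), and 0.59 at fixed shares.

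Hebp1 and Gm14446 were rare transcripts, with 490 and 358 UMIs over all 17 libraries. Hebp1 had 12, 4, 13, 7, 3, and 15 and 3 UMIs in the control libraries in order of day, and 95, 48, 90, 71 and 56, 13, and 24 and 13 with KPT-330. All KPT-330 levels of Hebp1 (0.0308 to 0.208) were above all control levels (0.00428 to 0.0150). Its pooled fold was 13.8 at day 0.25 (95% interval 7.56 to 27.7) and 4.09 at day 6 (95% interval 2.27 to 7.64), where the exact intervals cover counting error only. The log2 ratio averaged 3.12 ± 0.72 (SD, n = 6 time points), and 3.14 at fixed shares. At day 4, with 3 control UMIs, the fold was 7.20 (95% interval 1.98 to 39.4).

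Gm14446 differed in its course, with higher levels on later days in both conditions. The controls held 2, 1, 6, 10, 11, and 29 and 9 UMIs, and the KPT-330 libraries 5, 12, 52, 60 and 44, 32, and 35 and 31. The level with KPT-330 went from 0.0109 at day 0.25 to 0.0784 and 0.0774 at day 6. The day 0.25 library lay inside the control range of 0.00204 to 0.0233 and the other 7 above it. The fold was 4.37 at day 0.25 (95% interval 0.715 to 45.9, from 2 control UMIs), 17.0 at day 1 (95% interval 2.52 to 729, from 1 control UMI) and 3.46 at day 6 (95% interval 2.29 to 5.30). At day 0.25 the interval includes 1, so no rise of Gm14446 was detectable at this depth. Over the 6 time points the log2 ratio averaged 2.61 ± 0.81 (SD), and 2.97 at fixed shares.

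**Figure D2:**
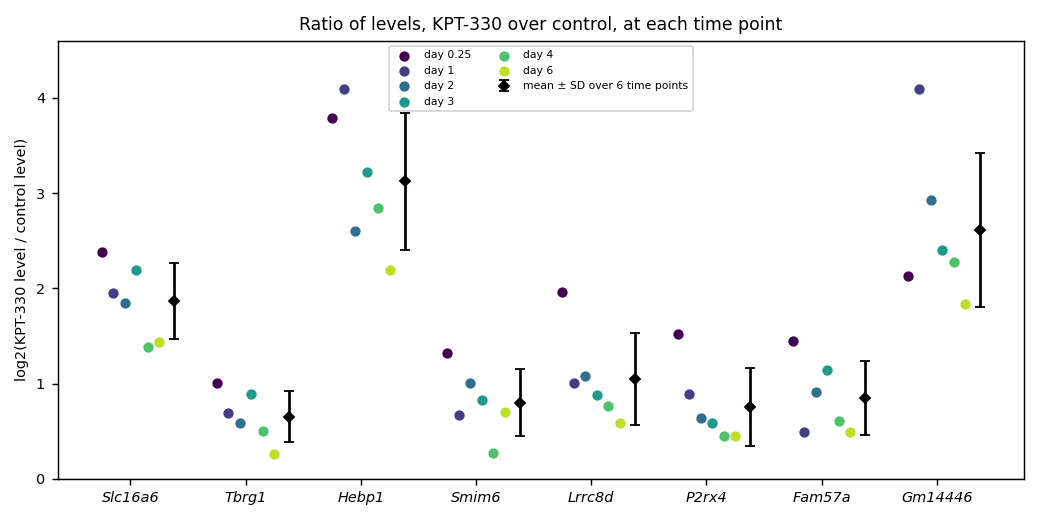
Log2 ratio of the KPT-330 level over the control level for each gene at 6 time points (coloured points), with the mean and SD over time points (black diamonds). Slc16a6, Tbrg1, Smim6, Lrrc8d, P2rx4 and Fam57a had their highest ratio at day 0.25, and Hebp1 and Gm14446 at day 1.

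The same counts can be given as the share of cells with a UMI. After each cell was thinned to 2000 UMIs, which left out 341 control and 686 KPT-330 cells, Slc16a6 was found in 6.82% to 10.6% of control cells and 21.4% to 41.1% of KPT-330 cells per library (unthinned, 10.98% to 39.2% and 33.7% to 78.4%). In stem I-like cells, where untreated Slc16a6 was lowest, the thinned share was 4.68% in control and 27.4% in KPT-330 cells. The median depths were 4094 and 4123.5 UMIs. Tbrg1 went from 28.0% to 32.8% of control cells to 38.8% to 48.6%. For Hebp1 the shares were 0% to 0.395% and 0.236% to 4.26%, and for Gm14446 0% to 0.443% and 0.115% to 1.79%, so most cells had no UMI of either gene in both conditions. These 2 genes overlapped between conditions by this measure. Gm14446 at day 0.25 was at 0.182% in control and 0.115% in KPT-330 cells, and Hebp1 at day 6 was at 0.395% and 0.266% in the control libraries and 0.874% and 0.236% in the KPT-330 libraries.

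The members sat among other genes that were higher at every time point. Ordered by the p of edgeR's quasi-likelihood test for KPT-330 against control with day as a factor, the first was Xpo1, which encodes Exportin 1 itself (control level 0.607 to 1.69, KPT-330 1.03 to 5.01). Slc16a6, Hebp1, Gm14446, Lrrc8d, Smim6, P2rx4, Fam57a and Tbrg1 took places 2, 5, 6, 7, 8, 9, 10 and 23. Just after Tbrg1 came Atp6v1a, a subunit of the lysosomal proton pump, Rragd, a GTPase that relays amino acid supply to mTORC1, and Ddit3, a stress-induced transcription factor. Tbrg1 had a fitted log2 fold of 0.88 (SE 0.097), and Atp6v1a 0.72 (SE 0.080), Rragd 1.26 (SE 0.14) and Ddit3 1.11 (SE 0.12). These values chose or bordered the set and carry no test.

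Levels by cell type were not part of the choice, but it did use the control libraries, which supplied part of the untreated cells. The choice compared whole organoids, in which the share of Paneth-like cells was higher with KPT-330 on the later days. Genes that are high in Paneth-like cells could therefore pass it more easily. The comparisons of cell types below are thus not independent of the choice, and how far it raised their counts was not tested. Cells were grouped by clustering without the 8 genes, and clusters were named only by fixed markers as "-like" types. Across the 9 untreated libraries, 6 of the 8 genes passed the low-count filter in 9 cell types. Hebp1 and Gm14446 did not. Each type was compared with the mean of the others with edgeR, with library as a block. Of 54 tests, 20 found a member higher and 23 lower at an adjusted p under 0.05.

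Paneth-like cells had higher levels of all 6 genes tested, where 24.6% of all genes were higher and 19.5% lower, and so had early Paneth-like cells, where 17% were. The difference in Paneth-like cells was largest for P2rx4 (log2 fold 2.19, edgeR adjusted p = 1.08e-20) and Smim6 (2.03, edgeR adjusted p = 2.25e-17). It was 1.34 for Fam57a, 0.96 for Slc16a6, 0.88 for Lrrc8d and 0.78 for Tbrg1. In levels, P2rx4 was at 1.70 ± 0.37 (SD, n = 5 libraries) in early Paneth-like and 1.42 ± 0.25 (SD, n = 5) in Paneth-like cells, and at 0.229 ± 0.055 (SD, n = 9) in stem III-like cells, whose leading genes included the proliferation genes Mki67 and Top2a. Early secretory-like cells were higher in P2rx4 (1.03), Smim6 (1.40) and Tbrg1 (0.39), where 3.61% of all genes were higher and 1.14% lower. The call of Tbrg1 there was lost without the control library of day 0.25, 1, 2 or 3 or the first of day 6 (log2 fold 0.36 to 0.42 over the 9 fits that left out 1 library), and that of Lrrc8d in early Paneth-like cells without the day 2 library (0.55, edgeR adjusted p = 0.0527). The test sets a type against the mean of the log levels of all others. In plain order of level the Paneth-like cells of Fam57a (0.276 ± 0.037, SD, n = 5) stood at place 4 of 9.

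The stem-like classes were lower. P2rx4, Slc16a6, Smim6 and Tbrg1 were lower in stem I-like cells (22.5% of all genes), with log2 folds of -0.76, -1.45, -1.70 and -0.54. The same 4 genes and Lrrc8d were lower in stem II-like (12% of all genes lower and 16% higher) and stem III-like cells (23.1%). Stem II-like cells had none of their markers among the 10 leading genes of their cluster. Fam57a was the exception, at 0.42 higher in stem III-like cells (27% of all genes higher). That call was lost without the control library of day 0.25, 2 or 3 or the second of day 6 (0.37 to 0.41, lowest edgeR adjusted p = 0.05003), and the value was -0.10 when cells were named by marker score.

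Enterocyte-like cells had calls in both directions, for these genes and for large shares of all genes alike. In enterocyte-like cells Slc16a6 (log2 fold 1.33, edgeR adjusted p = 5.43e-16), Lrrc8d (0.53) and Tbrg1 (0.26) were higher, where 34.4% of all genes were, and Smim6 (-1.93) and Fam57a (-2.57, edgeR adjusted p = 3.12e-12) were lower, where 38.2% were. Slc16a6 reached 0.914 ± 0.21 (SD, n = 9) there, its highest mean, and Fam57a only 0.0286 ± 0.028 (SD, n = 9). With library totals in place of TMM scaling, a change that moved the median of all genes in enterocyte-like cells to -0.55, Tbrg1 turned to -0.16 (edgeR adjusted p = 0.0381) and Lrrc8d was no longer called. Tbrg1 also lost the call without the day 0.25 library (0.16, edgeR adjusted p = 0.0583). In enteroendocrine-like cells, the hormone-secreting class, Smim6 was higher (0.52, 31.5% of all genes) and P2rx4, Slc16a6 and Tbrg1 were lower (27%). Early enterocyte-like cells were lower in Fam57a, P2rx4, Smim6 and Tbrg1, where 1130 of 10789 genes (10.5%) were. Each of these 4 calls was lost without at least 1 library, such as Fam57a without day 1 (-0.74, edgeR adjusted p = 0.238), P2rx4 without the first day 0 library (-0.76, edgeR adjusted p = 0.0843), Smim6 without day 1 (-0.62, edgeR adjusted p = 0.180) and Tbrg1 without day 2 (-0.20, edgeR adjusted p = 0.244).

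**Figure D3:**
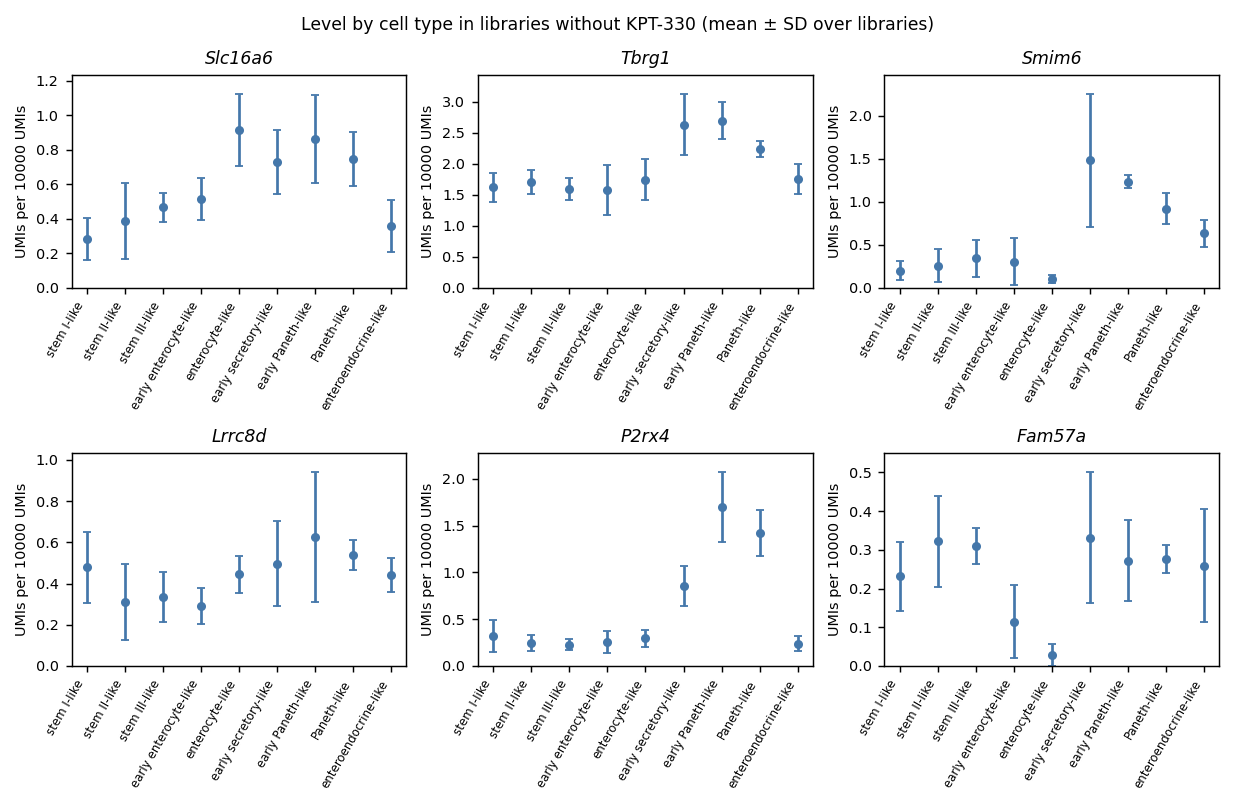
Level of 6 genes by cell type in libraries without KPT-330 (UMIs per 10000 UMIs, mean and SD over 4 to 9 libraries, linear axes from 0). P2rx4 and Smim6 were highest in the secretory and Paneth-like types, Slc16a6 also in enterocyte-like cells, and Fam57a was lowest in enterocyte-like cells.

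Neighbours in the order of levels were compared over the libraries that held both. Of 64 neighbouring pairs over the 8 genes, 0 differed at an adjusted p under 0.05 by an exact two-sided sign-flip test over libraries, and 2 had an unadjusted p under 0.05. These were enteroendocrine-like over stem III-like (exact p = 0.0156, higher in 7 of 8 libraries) and stem I-like over enterocyte-like (exact p = 0.03125, higher in 6 of 7), both for Smim6, each with an adjusted p of 0.80. With at most 9 libraries a pair cannot go below an exact p of 0.00391, and with 5 libraries 0.0625, so no single pair could pass the adjustment over 64 pairs, and the count of 0 does not show that neighbours were alike. Hebp1 had 24 UMIs in untreated enterocyte-like, 28 in stem III-like and 0 in early Paneth-like and early secretory-like cells. Gm14446 had 42 in enteroendocrine-like and 21 in enterocyte-like cells, and no more than 9 in any other type.

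Values within cell types come from the same cells that chose the genes, which raises their counts, and are a description. There were 36 pairs of cell type and time point with at least 20 cells in both conditions, and the median gene among all tested was higher in 14 of them. Slc16a6 was higher in 36 of 36, Smim6 in 35, Tbrg1, Lrrc8d and P2rx4 in 34 each, Fam57a in 31, Hebp1 in 27 and Gm14446 in 18. Pairs without a UMI in either condition, which occurred for Hebp1 and Gm14446, count as not higher. The remaining pairs of these genes were therefore not all lower. The 36 pairs share libraries, and 0.851% of all genes were higher in at least 30 of them.

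Ratios by type are given without a test, with 0.1 added to both levels, and the medians cover 4 time points in Paneth-like, 5 in enteroendocrine-like and 6 in stem I-like and enterocyte-like cells. Slc16a6 had a median log2 ratio of 1.00 in Paneth-like, 1.60 in enterocyte-like, 1.94 in stem I-like and 2.03 in enteroendocrine-like cells. The level of P2rx4 in Paneth-like cells was 1.08 in control libraries and 1.69 in treated ones at day 2, but at 1.59 and 1.62 at day 3, 1.72 and 1.62 at day 4, and 1.37 and 1.39 at day 6, with a median log2 ratio of 0.02. In stem I-like cells the log2 ratio of P2rx4 was 0.019, 0.88, 1.19 and 0.50 at those 4 days, and 1.33 and 1.25 at days 0.25 and 1, which had no Paneth-like value. Lrrc8d had 1.21 in stem I-like and 0.27 in enterocyte-like cells. Gm14446 in enteroendocrine-like cells was at 0 with KPT-330 on days 1 and 2 (control 0 and 0.0125), and at 0.263, 0.524 and 0.465 on days 3, 4 and 6 against 0.0614, 0.0790 and 0.0707 in control. In enterocyte-like cells Gm14446 was at 0 at day 0.25 in both conditions, at 0.0804 and 0.0955 with KPT-330 on days 1 and 2 (control 0 and 0.00296), and at 0.311 against 0.0442 on day 6. For Hebp1 in enterocyte-like cells the day 0.25 levels were 0.388 in the treated and 0.0382 in the untreated library, and the log2 ratio was 1.82 at day 0.25, 2.02 at day 1, 0.83 to 1.01 at days 2 to 4 and 0.19 at day 6. The day 6 levels, 0.0603 with KPT-330 and 0.0407 in control, were both below the 0.1 added. At such low levels the added value draws ratios towards 0, so they cannot be compared in size with those of whole organoids.

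**Figure D4:**
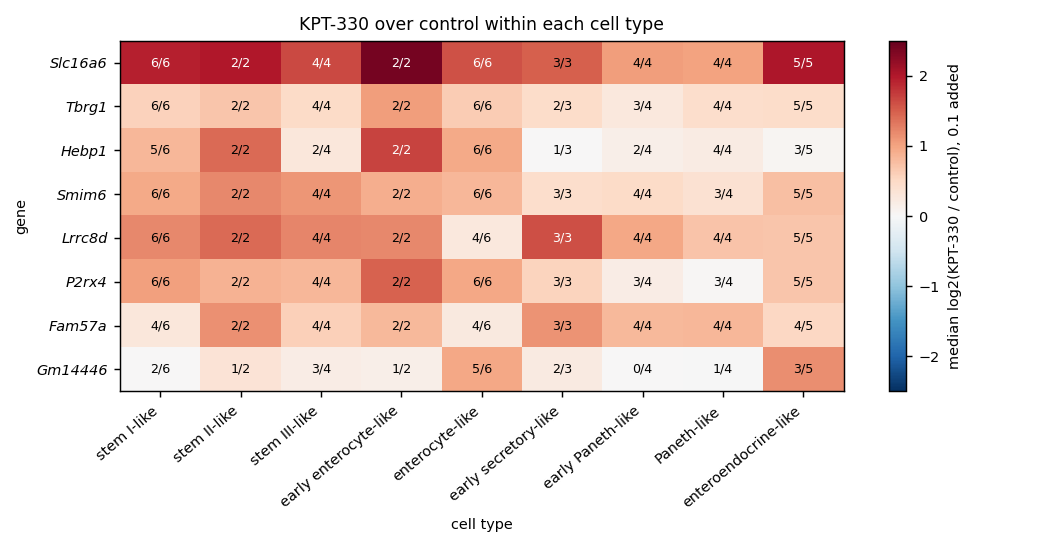
Median log2 ratio of KPT-330 over control within each cell type (colour, 0.1 added to both levels) for the 8 genes, with the number of time points that were higher out of those measured. Slc16a6 was higher in 36 of 36, whereas Gm14446 was higher in 18 and P2rx4 had a median of 0.02 in Paneth-like cells. Time points without a UMI in either condition count as not higher.

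The difference between stem-like and all other cells in the KPT-330 effect was tested as an interaction in edgeR with library as a block, over 15 libraries. It called 0 of 12042 genes (0% called), 8.89% of genes had an unadjusted p under 0.05, and the lowest adjusted p was 0.0701. Lrrc8d had an interaction of 0.28 (SE 0.14, unadjusted p = 0.0640 and adjusted p = 0.58 by edgeR), and Smim6 of 0.66 (SE 0.43, adjusted p = 0.70 by edgeR). The SE was 0.14 to 0.83 for the genes other than Gm14446, which does not show that the classes respond alike.

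Over the untreated course from day 0 to day 6, P2rx4 rose by 0.35 on the log2 scale per day (SE 0.048, edgeR adjusted p = 0.000864) and Lrrc8d by 0.12 (SE 0.033, edgeR adjusted p = 0.0138), where 18.6% of 12493 genes rose and 19.9% fell. Without the day 0 libraries the slope of Lrrc8d was 0.073 (edgeR adjusted p = 0.0993), and without the second day 6 control library 0.12 (edgeR adjusted p = 0.0607). Tbrg1 had a slope of 0.065 (edgeR adjusted p = 0.0724), Smim6 0.12 (0.142) and Gm14446 0.24 (0.118), which did not pass. Gm14446 passed without the second day 0 library (0.42, edgeR adjusted p = 0.0163). Control libraries of day 6 were also compared with day 0 alone. P2rx4 was higher at day 6 by 1.93 (edgeR adjusted p = 2.69e-06), Smim6 by 1.44 (4.44e-05), Lrrc8d by 0.91 (0.0026) and Tbrg1 by 0.53 (0.0326). Slc16a6, Hebp1, Fam57a and Gm14446 did not pass. The share of all genes that passed is not given here. Day 0 was in ENR+CV and day 6 in ENR+CD, so medium and day cannot be told apart. Slc16a6 (0.031), Hebp1 (-0.14) and Fam57a (-0.021) showed no slope beyond the spread between libraries. Paneth-like cells went from 0.565% and 0.956% of the day 0 libraries to 46.2% of day 6 control cells over the same days, and their part in these slopes was not tested.

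The 8 genes lie apart on the genome, at positions from GENCODE vM21 on the mm10 build. Fam57a (chr11:76179671-76214827, plus strand), Slc16a6 (chr11:109450855-109473598, minus strand) and Smim6 (chr11:115912017-115913920, plus strand) are on chromosome 11. Lrrc8d (chr5:105699969-105832436, plus strand) and P2rx4 (chr5:122707544-122729738, plus strand) are on chromosome 5. Hebp1 (chr6:135137522-135198022, minus strand), Tbrg1 (chr9:37648763-37657312, minus strand) and Gm14446 (chr19:34592891-34601956, minus strand) are alone on theirs. Of the 16 nearest tested neighbours, 4 were higher with KPT-330 and 7 lower, where 14.4% of all genes were higher and 14.2% lower (470 and 4900 genes by library totals). P2rx4 is followed 1432 bases on by Camkk2, a calcium-dependent kinase gene, which was lower with KPT-330 (-0.63, SE 0.16, edgeR adjusted p = 0.01003). Fam57a lies 24 bases from Vps53 (0.21, SE 0.066, edgeR adjusted p = 0.03124). Slc16a6 lies between Gna13 (0.40, SE 0.074) and Wipi1 (-0.29, SE 0.091), and Lrrc8d between its family member Lrrc8c (-0.46, SE 0.46) and Zfp326 (-0.55, SE 0.073). The neighbours of Tbrg1 were Spa17 (-0.58) and Vwa5a (-0.24), and those of Hebp1 Gprc5a (0.25) and Emp1 (0.80). Not all of these tested neighbours lie close by, as Vwa5a is 1060956 bases from Tbrg1 and Emp1 164523 bases from Hebp1. Smim6 is flanked by Smim5 (0.81, SE 0.30, edgeR adjusted p = 0.0604) and Sap30bp (0.034).

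Gm14446 has family members on both sides. 2010002M12Rik, also named Ifit1bl2, was higher with KPT-330 (2.26, SE 0.43, edgeR adjusted p = 0.00274), with a median level of 0.367 against 0.0756 in the controls. Ifit2, on the other side, was lower (-0.95, SE 0.25, edgeR adjusted p = 0.0129). IFIT genes are close copies, so reads could have been split or shared between them and the level of Gm14446 is uncertain to that extent. Slc16a6 overlaps Amz2 and Arsg, Tbrg1 overlaps Siae, Smim6 overlaps Recql5 and Fam57a overlaps Glod4, in each case on the opposite strand. Fam57a also overlaps Gemin4 on that strand, which had 30 UMIs and was not tested. Hebp1 overlaps Fam234b and Gm19434, and Lrrc8d overlaps Lrrc8dos, on the opposite strand, but no counts were listed under these names. Overlapping pseudogenes and small RNA genes had none listed either. Whether the counting used strand is not given in the sources used here. Fitted folds of the tested partners were -0.29 for Amz2, 0.51 for Arsg, 0.23 for Siae, -0.23 for Recql5 and 0.12 for Glod4, against 2.08 for Slc16a6, 0.88 for Tbrg1, 1.05 for Smim6 and 1.09 for Fam57a.

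**Figure D5:**
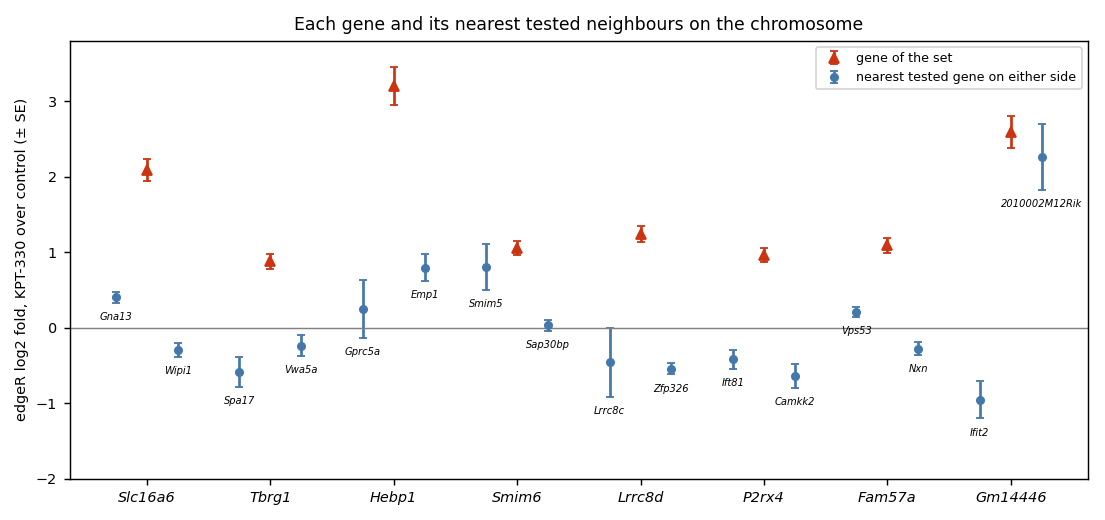
Fitted log2 fold of KPT-330 over control (edgeR, bars are SE) for each of the 8 genes (triangles) and for the nearest tested gene on either side (circles). Of the 16 neighbours 9 sit below 0, and 2010002M12Rik beside Gm14446 is at 2.26.

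Promoter sequence was looked at because all 8 genes were higher with KPT-330, as the choice required. RefSeq windows on GRCm38.p6 of 250 bases before to 50 after the start were found for 7 of the 8 genes (10 windows), with none for Slc16a6. The short motifs searched on both strands were AP-1 (TGACTCA or TGAGTCA), CRE (TGACGTCA), an ATF4 and C/EBP composite (TGATGNAA), FOX (GTAAACA), E-box (CACGTG), an antioxidant response element (ARE, TGACNNNGC), the GC box (GGGCGG), the CCAAT box (CCAAT) and p53 by name. The palindromes CRE and E-box read alike on both strands, and some GC boxes overlap each other. None of the 7 genes held AP-1, CRE, FOX or p53 motifs, which 5.95%, 2.03%, 4.05% and 0.0740% of all 27025 genes held. An E-box was found for Hebp1 and Tbrg1 (8.09% of all genes), an ARE for P2rx4 (13.99%) and the composite for Gm14446 (4.51%). GC boxes were found for 4 of 7 (38.2% of all genes) and CCAAT boxes for 3 of 7 (41.1%). Smim6 had no match to any of them. The E-box, ARE and composite matches are printed to show which genes shared one, with the motif in capitals (for Gm14446 it reads TGATGNAA on the other strand):
Hebp1, E-box, chr6:135168259-135168282, minus strand, from position -58: gactgggctCACGTGggtggagtt
Tbrg1, E-box, chr9:37657265-37657288, minus strand, after the start: cggaagttaCACGTGgcggtgctt
P2rx4, ARE, chr5:122707384-122707410, plus strand, from position -151: tccgggagcTGACCTTGCtccctgctc
Gm14446, composite, chr19:34599512-34599537, minus strand, from position -101: aaacagaatTTACATCAacatacaaa

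The other genes of each member's family were followed in 8 lists, with the same edgeR fit, where 14.4% of all genes were higher and 14.2% lower and the median log2 fold was -0.0023. These lists were chosen with results of these data known. Their folds, and those of the neighbours above, are of whole organoids, without fixed shares of cell types. The stem-like share had a median of 33.1% (19.8% to 86.7%) in control and 11.8% (2.73% to 85.4%) in KPT-330 libraries. The part of such changes in these folds was not tested. Scaling by library totals, added after the data were seen, moved the median of all genes to -0.27, and list genes that lost their call under it are named. The 8 members were chosen on this contrast, so only their log2 folds by library totals are given, from 0.61 for Tbrg1 to 2.97 for Hebp1. By that scaling the calls over all genes were 470 higher and 4900 lower, in place of 1841 and 1820.

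Among 12 tested genes of the monocarboxylate transporter list (median -0.061), Slc5a8, a sodium-coupled carrier of lactate and butyrate, was higher (1.76, SE 0.34, edgeR adjusted p = 0.00259) and none was lower. Slc5a8 was a rare transcript, with 100 UMIs in total. Slc16a1, the main lactate carrier, was at 0.21 (SE 0.12, edgeR adjusted p = 0.212), and Bsg, its chaperone, at 0.12 (SE 0.10). Of 8 ketone body genes (median 0.15) only Cpt1a, which admits fatty acids to mitochondria, was higher (0.48), and by library totals it was not called. None of the 4 other LRRC8 subunits passed (median -0.18), including Lrrc8a, the obligatory subunit, at 0.18 (SE 0.11).

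In the purinergic list (10 tested, median 0.13), the nucleotide receptors P2ry1 (0.55) and P2ry2 (0.75) and the ecto-nucleotidase Entpd2 (0.44) were higher and lost the call by library totals. Nt5e, which makes adenosine from AMP, was lower (-2.02, SE 0.53, edgeR adjusted p = 0.0127), but was rare, with 91 UMIs in total. The haem list had 18 tested genes (median 0.11), of which 5 were higher and 1 lower. Slc46a1, which carries folate and haem, rose by 1.02 (SE 0.22, edgeR adjusted p = 0.00554) and Abcg2, a porphyrin exporter, by 0.60. Hmox1 (0.78), which breaks down haem, and Cpox (0.32) and Urod (0.26), enzymes of haem synthesis, were not called by library totals, where Urod was at -0.00078. Uros, also of haem synthesis, fell by 0.38. Hebp2, the paralog of Hebp1, was at -0.49 (SE 0.21, edgeR adjusted p = 0.0883).

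The TLC domain list (9 tested, median 0.22) had Tram1 (0.49), a translocon protein, and Cln8 (0.34), an endoplasmic reticulum export receptor, higher, the second not by library totals. None of the tested ceramide synthases passed. The IFIT and interferon list (17 tested, median 0.42) had 7 genes higher, among them 2010002M12Rik, Ifit1 (1.75, SE 0.46, edgeR adjusted p = 0.0131), the transcription factor Irf7 (0.71), the surface protein Bst2 (0.76) and Oasl1 (0.99), of the oligoadenylate synthetase family, and Ifit2 lower. Ifit1 was rare, with 123 UMIs in total. Ifih1, a sensor of double-stranded RNA, lost its call by library totals. Irf9 (-0.015) and Rsad2 (-0.73), typical interferon-induced genes, did not pass. In the p53 list (9 tested, median 0.15), Cdkn1a (0.55), a cell cycle inhibitor, and Ccng1 (0.50) were higher and Trp53 was lower (-0.46, SE 0.083, edgeR adjusted p = 0.00184), while Mdm2 was at 0.15 (SE 0.077, edgeR adjusted p = 0.149). Ccng1 lost its call by library totals.

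Genes with the most similar pattern were sought by Pearson correlation of log2 CPM (TMM-scaled, prior count 2) over the 17 libraries and 13455 genes, as a description, since all share the same libraries and treatment. Slc16a6 was most like Tbrg1 (r = 0.94), Hebp1 (0.92) and Fam21 (0.91). Tbrg1 was most like AW209491 (0.94), Lrrc8d (0.94) and Slc16a6. Lrrc8d was most like AW209491 (0.97), Arrdc3 (0.96) and Tbrg1, and Smim6 most like Lrrc8d (0.93), AW209491 (0.93) and Arrdc3 (0.92). Hebp1 followed Slc16a6, Gpr160 (0.90) and Tmco4 (0.88). P2rx4 had C1galt1c1 (0.98), Selk (0.96) and Atp6v0d1 (0.96), Fam57a had Zfp948 (0.88), Med7 (0.88) and Xpo1 (0.88), and Gm14446 had Wsb2 (0.93) and 4930453N24Rik (0.92). Among the 28 pairs within the set r ranged from 0.40 to 0.94 with a median of 0.79. The choice of the genes for a rise with KPT-330 raises these values, and no background is given for them. P2rx4, Fam57a and Gm14446 had no member of the set among their 3 nearest genes.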

How the data were processed

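Reads were demultiplexed by the authors (bcl2fastq) and mapped to the mm10 genome using STAR within the Drop-seq workflow, and raw UMI counts per gene symbol and cell barcode were deposited. A gene missing from a library's table was taken as 0. The 19877 cells named in the header of the authors' merged table were used, of 26229 barcodes. That table's own values were not used. Files listed 15576 to 21652 genes, a number that did not follow the depth of 3458887 to 12433109 UMIs per library. The first day 0 library and the libraries of days 0.25 and 1 listed more genes than all others. Genes taken as 0 were therefore not spread evenly over the days.

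Counts were summed per library, or per library and cell type with at least 20 cells. Clusters (Seurat 5.3.0, sctransform 0.4.2, R 4.3.3, resolution 0.45, 3000 variable genes less the 4 of the 8 genes among them) were named from fixed markers. Doublets had been removed by the authors and no further caller was run. Of the clusters, 2 were left unnamed by a limit set after the data were seen. Tests used edgeR 4.0.16 quasi-likelihood fits with TMM scaling, filterByExpr and Benjamini-Hochberg adjustment over all genes at 0.05, with DESeq2 1.42.0 as an alternative, and exact sign-flip tests (Python with scipy) for neighbouring types, adjusted over 64 pairs. The edgeR fits of whole organoids, of the untreated slope and of the interaction were tested on simulated data. The cell type fits and DESeq2 were not. The 8 genes and all lists were chosen with earlier results of these data known. Named genes were the 8 genes, up to 4 list genes per direction with the smallest p, nearest tested neighbours, 3 most correlated genes each, and 3 genes next in order. Other list genes were named after their values were seen. A few genes that these rules select are not reported here. The main fits did not use replicate number, and its meaning is not given in the labels. Deviations of same-numbered libraries had r = 0.37 between day 6 control and day 6 KPT-330. Comparisons of different days gave 0.09, 0.01 and 0.11. Pairing within a day is thus not excluded. Days 0.25 and 1 held only replicate 1 and days 2 and 4 only replicate 2, so replicate number and day are partly confounded. Intervals cover counting error only.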

Additional observations from a re-analysis of the deposited data

Results flagged for a closer look

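Among 16 sets of libraries examined (7 control or 8 KPT-330 libraries for each gene, which span several days), 3 held a library far from the others, where about 1 in 20 is flagged by chance. Lrrc8d at 1.53 and Fam57a at 0.772 UMIs per 10000 were highest in the KPT-330 library of day 0.25, and Smim6 at 0.420 was lowest in the control library of day 2.

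A further 6352 barcodes were in the tables but not kept by the authors. No comparison of the report used them, apart from the alternative with all barcodes given below. In their summed UMIs (12127824 in control and 11568367 in KPT-330 libraries) Slc16a6 was 2.94 times, Hebp1 7.78 times and Lrrc8d 1.78 times higher with KPT-330, and each was higher at 6 of 6 time points. Tbrg1 (1.22 times), Smim6 (1.37), Fam57a (1.47) and Gm14446 (3.19) were higher at 5 of 6 and P2rx4 (1.09) at 4 of 6. These barcodes come from the same libraries and were not tested.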

How the results depend on the processing

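The 8 mean ratios stayed positive under all alternatives run (all barcodes, at least 1000 genes per cell, mean over cells, TMM scaling, 0.1 added, fixed shares of cell types and each day 3 or 6 library left out). They moved by less than 1 SD, except that with 0.1 added Hebp1 was 0.78 and Gm14446 0.45. For all genes, library totals gave 470 higher and 4900 lower, and leaving out 1 library gave 1022 to 2057 higher and 993 to 2001 lower, the lowest without the day 3 control. With the replicate block the counts were 1999 and 1958. In the untreated course, leaving out the ENR+CV libraries gave 981 rising and 1157 falling. Tbrg1 passed there with the replicate block (0.076, edgeR adjusted p = 0.0268) and with DESeq2 (0.063, DESeq2 adjusted p = 0.0470). Gm14446 passed without the ENR+CV libraries (0.52, edgeR adjusted p = 0.0161). The slope of Slc16a6 was -0.035 without the first day 6 control and that of Fam57a was 0.015 without ENR+CV, neither passing. The interaction called 253 genes with no filter, 1 by marker score, 1 for stem III-like cells, and 0 to 6 with 1 library left out, and 0 of the 8 genes in any of 21 settings. Of 602 repeats of the cell type calls, 32 lost the call and 2 turned. Tbrg1 in enterocyte-like cells was -0.16 by library totals and Fam57a in stem III-like cells -0.10 by marker score. The cause was not tested. Rare transcripts limit Hebp1 and Gm14446.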
